A study of Homo sapiens with 3 samples.

Results

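The genes described here are 10 enzymes of purine synthesis, salvage and xanthine oxidation, taken by name from a pathway list: PPAT, GART, PAICS, ADSL, ATIC, IMPDH2, HPRT1, APRT, PNP and XDH. The rule names genes and uses no measured value, but the members were chosen with earlier results of these data known. They are 10 of the 22435 genes that could be named on the array, and they were measured by 12 probes, 8 genes by 1 probe each and GART and PPAT by 2 each. The cells were A549, an established human lung adenocarcinoma line with epithelial features. They were treated for 48 h with 0.1% DMSO (control), with cordycepin at 60 μg/mL or with cordyceps at 100 μg/mL. Cordycepin is 3′-deoxyadenosine, an adenosine analogue made by the fungus Cordyceps militaris, and the labels do not say how the cordyceps was prepared or whether the treated cultures also held DMSO. Per the labels, all cultures shared the same DMEM. It held fetal bovine serum at 10% and, as antibiotics, penicillin-streptomycin at 1%. It also held nicotinamide, a vitamin that cells convert to NAD, at 10 mM, troglitazone, a PPARγ agonist, at 10 μM, and zinc sulfate at 16.7 μM, so that these agents were present in the control as well. The study's methods describe DMEM with serum and antibiotics alone, and which medium the arrayed cells had is not settled.

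Each treatment was measured on 1 one-colour Agilent array, so there was no replicate, no test and no spread between cultures, and every difference below is a difference between 2 arrays. The cordycepin and cordyceps comparisons also share the control array, so their values are given side by side and are not independent of each other. The doses differed and the content of the cordyceps is not stated, so the treated arrays were not set against each other. RNA was bulk, and a change in RNA per cell cannot be told apart from a change in which cells remained in the dish.

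Cells build purines either from small precursors or by recycling free bases. In de novo synthesis, phosphoribosyl pyrophosphate is committed to the pathway by PPAT, the ring is assembled in steps that end at inosinate (IMP), and IMP is turned into adenylate or guanylate, with IMPDH2 at the entry to the guanylate branch. In salvage, HPRT1 and APRT return bases to nucleotides, while PNP frees hypoxanthine and guanine from their nucleosides. XDH, xanthine dehydrogenase and oxidase, takes hypoxanthine to xanthine and xanthine to urate, the end product in humans, and can release reactive oxygen species in its oxidase form. Adenosine analogues enter cells through the same nucleoside transporters as adenosine, and the kinases that handle adenosine can phosphorylate them.

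Of the 10 genes, XDH was the one with a signal more than 2-fold different from the control, and it was higher on both treated arrays. The XDH signal was 402 in the control, 1154 with cordycepin and 3964 with cordyceps. The other 9 genes stayed within a log2 difference of -0.39 to 0.40 with cordycepin and of -0.51 to 0.32 with cordyceps. None of these 9 enzymes of IMP synthesis, guanylate synthesis and salvage was past 2-fold on either array.

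The values were read on the following scale. The signal is the scanner software's background-subtracted intensity in arbitrary units, and a log2 ratio is the difference between 2 arrays of log2 signal after each array's 75th percentile was subtracted. That percentile was 260.1 in the control, 224.3 with cordycepin and 260.2 with cordyceps. A cordycepin signal equal to the control's, or somewhat below it, therefore gives a log2 ratio above 0. HPRT1, for example, read 5354 in the control and 4766 with cordycepin, a log2 ratio of 0.05. All 12 probes were well above background on all 3 arrays and none was saturated. Each member probe had 1 spot, and the software's own error was about 10% of a signal, or about 0.20 on the log2 scale for a ratio. Over the 3356 genes with more than 1 probe measured, the spread of 1 probe's log2 ratio, from the differences between probes of a gene, was 0.25 with cordycepin and 0.20 with cordyceps. The plain SD behind the same differences, which gives more weight to genes whose probes disagree, was 0.35 and 0.34. This spread covers probes of 1 gene on the same arrays and not separate cultures.

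On the cordyceps array, a corner of the slide, from row 241 of 384 and column 83 of 164, stood apart. It held 10820 probes (18.6%), placed by their first spot. Shares past 2-fold were taken over probes well above background on the control or the cordyceps array. Of these, 14.7% in the corner were at least 2-fold higher with cordyceps, against 2.80% outside it. The median log2 ratio of probes measured on both arrays was -0.13 in the corner and -0.12 outside it. The brightest GART probe, the second GART probe and the second PPAT probe lay in this corner. The XDH probe lay outside it. Values from the corner are marked as such below, and its part in them was not tested. The percentile subtracted from each array was taken with the corner included, so the corner also enters ratios of probes outside it. With the corner left out and arrays rescaled, all members outside it had higher log2 ratios with cordyceps. XDH went from 3.30 to 3.41, APRT from -0.51 to -0.39, HPRT1 from -0.39 to -0.28 and ADSL from -0.07 to 0.05. With cordycepin XDH went from 1.73 to 1.74.

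The cells were checked against cell type markers. All 9 A549 markers (KRT7, KRT8, KRT18, KRT19, EPCAM, NQO1, AKR1B10, AKR1C1 and ALDH1A1) were well above background on every array, with a lowest signal of 1066 in the control, 323 with cordycepin and 612 with cordyceps. Their summed signal was 985047, 724837 and 735581 in the same order. Of 5 fibroblast markers COL1A1 alone was well above background, at 337, 239 and 208, and of the 3 leukocyte markers with a probe PTPRC alone, at 99.5, 71.8 and 72.9, both on every array. The 3 endothelial markers PECAM1, VWF and CDH5 summed to 97.9, 105 and 93.9, and 3, 2 and 0 of them had a probe well above background. The part of other cells' RNA in the results was not tested.

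**Figure D1:**
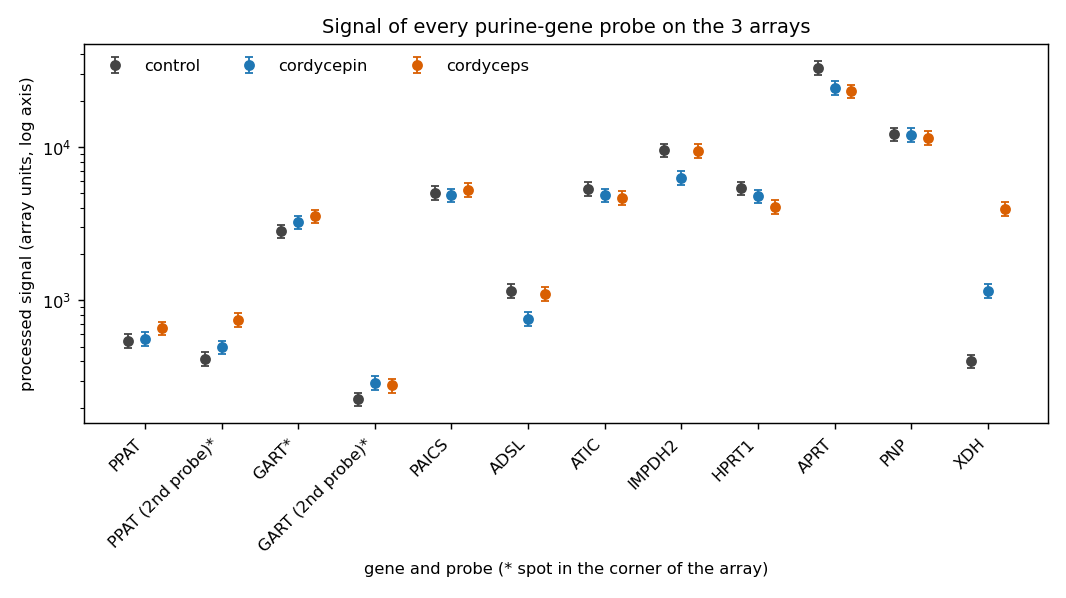
Processed signal (array units, log axis) of the 12 probes on the control, cordycepin and cordyceps arrays. Each point is 1 probe on 1 array, bars are the scanner software's error and not a replicate spread, and an asterisk marks a spot in the slide corner; XDH goes from 402 to 1154 and 3964, while the points of most other probes lie close together.

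XDH, the gene past 2-fold, is described first. Its signal of 402 in the control had a software error of 40.6, the 1154 with cordycepin an error of 116 and the 3964 with cordyceps an error of 396. Relative to the array's 75th percentile, the log2 level was 0.63, 2.36 and 3.93 in that order. The control was the lowest of the 3 arrays, cordycepin lay between and cordyceps was highest, and the error bars did not overlap.

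Scaled to the 75th percentile, XDH was 3.33-fold higher with cordycepin (log2 ratio 1.73, software error 0.21). It was 9.85-fold higher with cordyceps (log2 ratio 3.30, software error 0.20). Both ratios were several times the spread of 0.25 and 0.20 between probes of 1 gene, although XDH itself had 1 probe and 1 spot on each array. No second XDH probe was there to repeat the measurement.

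Among the 14600 genes measured on both arrays, 137 genes (0.938%, XDH included) had a ratio as high as that of XDH with cordycepin. With cordyceps the number was 22 of 13889 (0.158%), and 4 of these lay outside the corner. The spot of XDH, at row 93 and column 16, was unremarkable in its surroundings. The local background around it was 45 in the control, 41 with cordycepin and 45 with cordyceps, and it was not marked as a background outlier on any array. The 199 measured probes within 10 rows and columns of it had a median log2 ratio of -0.07 with cordycepin, and the 192 such probes with cordyceps had a median of -0.11.

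The upstream sequence of XDH is shown because XDH was the gene past 2-fold. The gene lies on the minus strand of chromosome 2 (GRCh38.p14, chr2:31334321-31414742). The line below gives the 250 bases before the RefSeq start, chr2:31414743-31414992 on the minus strand, which overlap no annotated gene, with capitals marking CCAAT boxes, read here on the opposite strand as ATTGG.
XDH upstream: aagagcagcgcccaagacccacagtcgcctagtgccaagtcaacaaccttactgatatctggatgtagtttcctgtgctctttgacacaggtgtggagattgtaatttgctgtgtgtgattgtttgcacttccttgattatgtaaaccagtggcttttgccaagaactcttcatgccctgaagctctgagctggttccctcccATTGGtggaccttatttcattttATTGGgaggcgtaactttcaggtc

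The XDH stretch held 2 CCAAT boxes, the letters CCAAT on either strand, the first of which begins 47 bases before the start. It held no GC box, the letters GGGCGG on either strand, and no E-box of the letters CACGTG. Its GC content was 46.4%, against a median of 58% over the 35097 RefSeq windows of the same 250 bases, and 25.5% of windows had as low a content. CCAAT occurs in 32.0% of those windows, GGGCGG in 42.6% and CACGTG in 6.34%, so that holding CCAAT is common. A match of letters is a description of the window and was not tied to the signals.

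The de novo pathway came next, in the order of its reactions. PPAT, amidophosphoribosyltransferase, makes the first committed step. Its brighter probe read 546 in the control, 564 with cordycepin and 657 with cordyceps, log2 ratios of 0.26 and 0.27. The second PPAT probe, in the corner, read 417, 495 and 746, log2 ratios of 0.46 and 0.84, and its spot on the cordyceps array was marked for outlying local background. Both probes were lowest in the control, and neither reached 2-fold.

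GART is a trifunctional protein that carries out several of the early ring-building steps. Both of its probes lay in the corner. The brighter one read 2827 in the control, 3217 with cordycepin and 3538 with cordyceps, log2 ratios of 0.40 and 0.32. The second, named through another GART transcript, read 227, 290 and 279, log2 ratios of 0.56 and 0.30. Every treated GART signal was above its control. For the brighter probe the scaled ratio was 1.32-fold with cordycepin and 1.25-fold with cordyceps, and the ratio of the signals as read was 1.14-fold and 1.25-fold.

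PAICS, which joins a carboxylase and a ligase step, read 5020 in the control, 4835 with cordycepin and 5264 with cordyceps. Its log2 ratios of 0.16 and 0.07 were within the spread between probes. ADSL, adenylosuccinate lyase, acts both on the way to IMP and on the way from IMP to adenylate. It read 1154, 761 and 1104, log2 ratios of -0.39 and -0.07, the lowest ratio among the 10 genes with cordycepin and a value within the spread with cordyceps.

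ATIC, which closes the ring to give IMP, read 5341 in the control, 4858 with cordycepin and 4657 with cordyceps. The log2 ratios were 0.08 and -0.20. The 5 enzymes of IMP synthesis had a median log2 ratio of 0.16 with cordycepin and 0.07 with cordyceps, with a range of -0.39 to 0.40 and of -0.20 to 0.32, and 0 of 5 were past 2-fold in either comparison.

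PPAT and PAICS face away from each other on chromosome 4, with 136 bases between the PPAT start and 1 of the annotated PAICS starts. These bases are shown as the shared upstream stretch of 2 pathway genes, with GC boxes in capitals. They lie at chr4:56435616-56435751 (GRCh38.p14, printed on the plus strand), inside the annotated span of PAICS, which has an earlier start as well.
between PPAT and PAICS: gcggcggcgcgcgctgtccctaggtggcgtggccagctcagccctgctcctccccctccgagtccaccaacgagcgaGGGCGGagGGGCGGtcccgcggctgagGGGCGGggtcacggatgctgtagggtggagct

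The stretch held 3 GC boxes and had a GC content of 75%. The genes on either side of it had log2 ratios of 0.26 and 0.27 (PPAT) and of 0.16 and 0.07 (PAICS). The ATIC window held 1 E-box, shown in capitals in the line below (chr2:215311993-215312038, GRCh38.p14, plus strand, overlapping no annotated gene). It is printed as 1 of 2 members whose windows held CACGTG, the other being PPAT.
ATIC upstream: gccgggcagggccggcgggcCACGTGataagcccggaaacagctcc

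RefSeq windows were matched for 8 of the 10 genes, as 12 windows since PAICS and GART have several starts. Of the 12 windows, 8 held a GC box, 5 a CCAAT box and 2 an E-box. Over all RefSeq windows the shares were 42.6%, 32.0% and 6.34%. The windows are not separate: 2 GART windows overlap almost fully, and the PPAT window overlaps 1 PAICS window. Boxes in shared bases therefore count more than once. GC boxes were found in at least 1 window of ATIC, PPAT, PAICS, PNP, APRT, HPRT1 and GART, and XDH was the 1 matched gene with none. CCAAT boxes were found in XDH, PNP and GART.

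IMPDH2, inosine monophosphate dehydrogenase, is the rate-limiting enzyme of the guanylate branch. It read 9537 in the control, 6302 with cordycepin and 9413 with cordyceps, log2 ratios of -0.38 and -0.02. The cordycepin array was the low one. The IMPDH2 spot on that array was marked for outlying local background, whose part in the value was not tested.

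The salvage enzymes followed. HPRT1 returns hypoxanthine and guanine to IMP and GMP, and read 5354 in the control, 4766 with cordycepin and 4074 with cordyceps, log2 ratios of 0.05 and -0.39. APRT, which does the same for adenine, read 32805, 24308 and 23100, log2 ratios of -0.22 and -0.51. PNP, purine nucleoside phosphorylase, read 12084, 11976 and 11452, log2 ratios of 0.20 and -0.08.

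All 3 salvage genes had their lowest signal with cordyceps, and APRT had the lowest ratio of the 10 genes there. The median log2 ratio of the salvage genes was 0.05 with cordycepin and -0.39 with cordyceps, and 0 of 3 were past 2-fold either way. APRT with cordycepin was within the spread of 0.25 between probes, as were HPRT1 and PNP. With cordyceps, HPRT1 and APRT were beyond the spread of 0.20 and PNP was within it. With arrays scaled to their median instead, HPRT1 with cordyceps was at -0.12, within that spread, and APRT at -0.24.

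**Figure D2:**
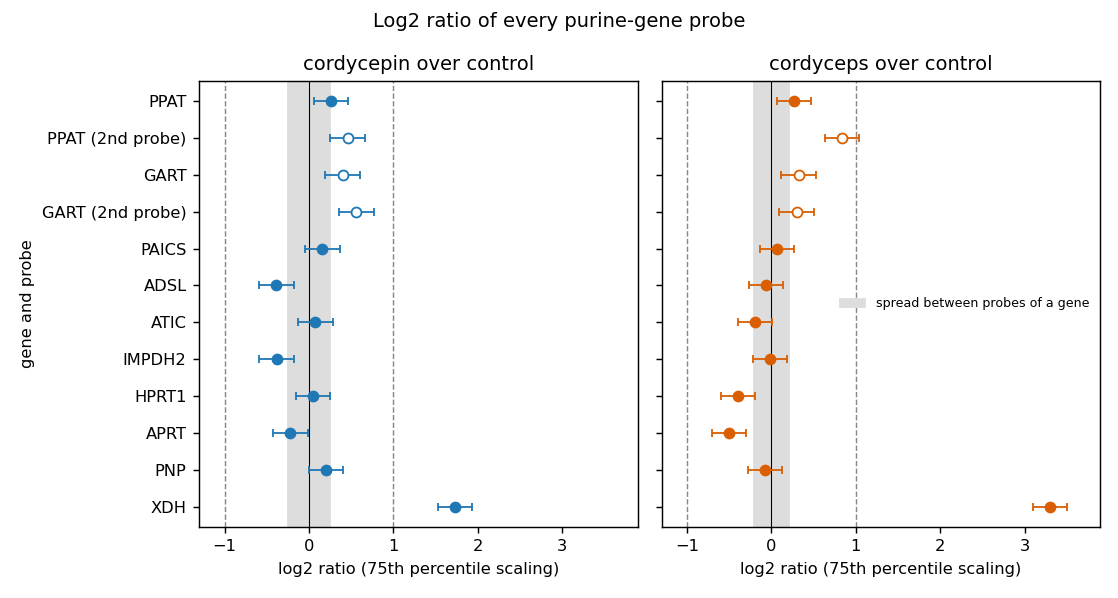
Log2 ratio over control for the 12 probes with cordycepin (left) and cordyceps (right). Bars are the scanner software's error, the grey band is the spread of a single probe's ratio between probes of 1 gene, dashed lines mark 2-fold and open circles are spots in the corner; XDH at 1.73 and 3.30 lies past the lines and the other probes lie between them.

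Set against the array as a whole, 1 of the 10 genes was at least 2-fold higher with cordycepin, where 947 of 15917 genes tested were higher (5.95%), and 0 of 10 were at least 2-fold lower, where 569 were (3.57%). With cordyceps, 1 of 10 was higher, against 654 of 15602 genes (4.19%), and 0 of 10 lower, against 492 (3.15%). Outside the corner the shares were 2.66% higher and 3.15% lower of 12622 genes. One gene in 10 does not set the members apart from these shares. Because the members were chosen with earlier results of these data known, the shares are a description and not a test.

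The members' median log2 ratio was 0.12 with cordycepin, beside -0.04 for all genes tested, and -0.04 with cordyceps, beside -0.10. Without XDH, the medians of the remaining 9 genes were 0.08 and -0.07. With cordycepin 7 genes were above 0 and 3 below, and with cordyceps 4 were above and 6 below. Of the 7, PAICS, ATIC, HPRT1 and PNP had an unscaled signal below the control's. The middle 50% of genes measured on both arrays had log2 ratios from -0.32 to 0.25 with cordycepin and from -0.37 to 0.16 with cordyceps. In each comparison, 5 of the 10 genes were within the spread between probes, and 6 with cordycepin and 7 with cordyceps were within its plain SD.

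**Figure D3:**
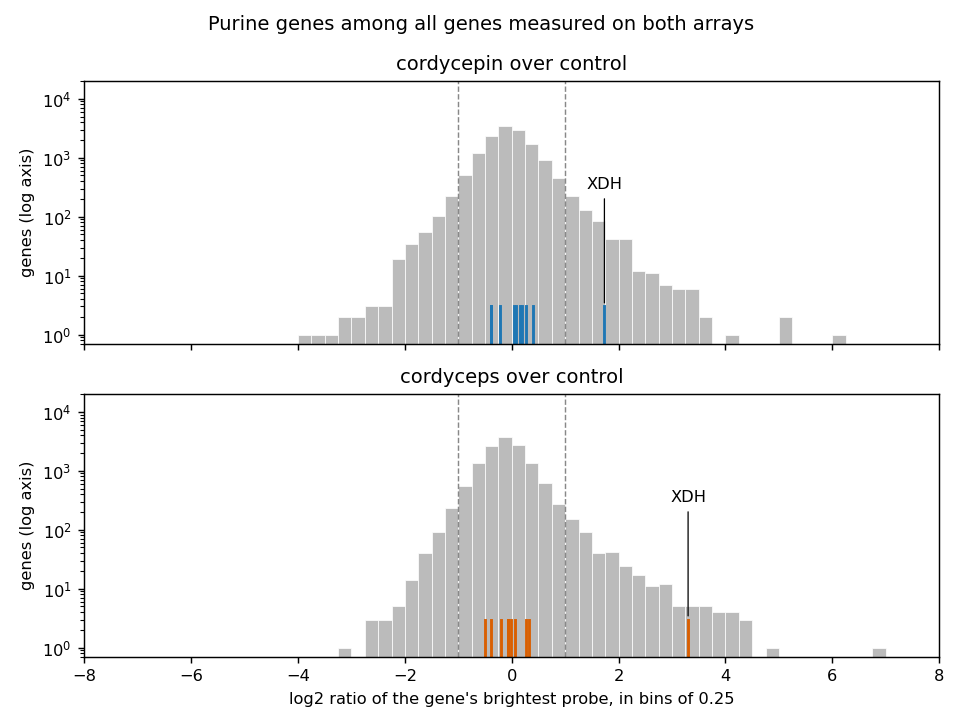
Number of genes (log axis) by log2 ratio, in bins of 0.25, for all genes measured on both arrays with cordycepin (top) and cordyceps (bottom). Coloured ticks are the 10 purine genes and dashed lines mark 2-fold; the ticks other than XDH sit in the central mass, and XDH sits at 1.73 and 3.30 in the right tail.

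The rest of the pathway was read from 6 lists of 47 genes, of which 42 were detected on at least 1 array of each comparison. With cordycepin 2 were at least 2-fold higher and 2 lower, and with cordyceps 4 were higher and 1 lower. Their median log2 ratios were -0.03 and -0.02. Where a gene was detected on 1 array of the pair alone, its ratio is a bound against the array's detection floor, a signal of 18.6 in the control, 21.8 with cordycepin and 34.5 with cordyceps.

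The 5 other synthesis enzymes (PFAS, ADSS1, ADSS2, GMPS and IMPDH1) and the 4 genes of phosphoribosyl pyrophosphate supply (PRPS1, PRPS2, PRPSAP1 and PRPSAP2) had no member past 2-fold. Among the synthesis enzymes ADSS1, an adenylosuccinate synthase, had the largest difference with cordycepin at a log2 ratio of -0.35, and ADSS2 with cordyceps at 0.29. Among the supply genes PRPSAP1, a regulatory partner of the synthetases, was at -0.48 with cordycepin, from a spot in the corner. PRPS1, the synthetase itself, was at -0.55 with cordyceps, where its spot was marked for outlying local background.

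Of the 12 genes of one-carbon supply, which feed formyl groups and glycine into the ring, 3 were past 2-fold higher with cordyceps. MTHFD2, a mitochondrial folate enzyme, read 3962 in the control, 5935 with cordycepin and 10254 with cordyceps, log2 ratios of 0.80 and 1.37. ALDH1L2, the mitochondrial formyltetrahydrofolate dehydrogenase, read 114, 115 and 341, log2 ratios of 0.23 and 1.58. PSAT1, a serine synthesis enzyme whose spot was in the corner, read 4155, 6019 and 10356, log2 ratios of 0.75 and 1.32.

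The MTHFD2 probe had 10 spots, of which 1 lay in the corner and 1 on the cordyceps array was marked for outlying background. Its log2 ratio with cordyceps was 1.38 over the spots outside the corner and 1.37 without the marked one. For MTHFD2 and PSAT1 the cordycepin array lay between the other two, and for ALDH1L2 it lay at the control. ALDH1L1, the cytosolic relative of ALDH1L2, was the 1 gene of this list past 2-fold lower with cordycepin. It read 52.6 in the control, 21.0 with cordycepin and 9.2 with cordyceps, and was not well above background on either treated array. With cordycepin it was at least 2.08-fold lower, a call lost with normexp background correction (log2 ratio -0.19). With cordyceps it was at least 1.53-fold lower, a bound set by that array's higher floor of 34.5. SHMT1, a serine hydroxymethyltransferase, gave different answers by probe: the brighter read 491, 433 and 280 (log2 ratios 0.03 and -0.81), and the dimmer, in the corner, read 146, 1043 and 80.1 (3.06 and -0.86).

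Of the 14 genes of interconversion and breakdown, AMPD1 and GMPR were not detected on any array. GDA, guanine deaminase, which turns guanine into xanthine, the substrate of XDH, was the 1 gene past 2-fold. Its brighter probe read 339 in the control, 622 with cordycepin and 381 with cordyceps, log2 ratios of 1.09 and 0.17. The second probe read 62.2, 163 and 72.6, log2 ratios of 1.61 and 0.22. The brighter probe's ratio was under 2-fold under median scaling, no scaling and normexp background correction, at a log2 ratio of 0.83 in the lowest. Both GDA probes were high with cordycepin and near the control with cordyceps.

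Among the interconversion and breakdown genes, ADA and ADK, which act on adenosine itself, were not past 2-fold. ADA, adenosine deaminase, was at log2 ratios of 0.28 and -0.15, from a spot in the corner. ADK, adenosine kinase, was at -0.04 and -0.47. AMPD3, an AMP deaminase in the corner, was at 0.95 with cordycepin, just under 2-fold, and 0.15 with cordyceps.

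Probes of 1 gene did not always match within these lists. MTAP, the methylthioadenosine phosphorylase that frees adenine for salvage, had a brightest probe that read 1513 in the control, 1290 with cordycepin and 1508 with cordyceps, while its other two probes were not well above background on any array. The brightest probe gave log2 ratios of -0.02 and -0.01. NT5C2, a nucleotidase, was at -0.08 with cordycepin by its brighter probe and at 0.97 by the other, both in the corner. MTHFD1L, a mitochondrial folate enzyme, was at -0.20 by its brightest probe and at 0.54 by its dimmest with cordycepin.

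XDH and aldehyde oxidase need a molybdenum cofactor, made by MOCS1, MOCS2, MOCS3 and GPHN and given its terminal sulfur by MOCOS. MOCOS read 762 in the control, 732 with cordycepin and 2093 with cordyceps, log2 ratios of 0.16 and 1.46. It was thus near the control on the cordycepin array and past 2-fold with cordyceps. Of its 10 spots 3 lay in the corner and 1 on the cordyceps array was marked for outlying background, and the log2 ratio with cordyceps was 1.45 over the spots outside the corner and 1.46 without the marked one. MOCS1, MOCS2, MOCS3 and GPHN were not past 2-fold in either comparison.

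AOX1, aldehyde oxidase, a relative of XDH with the same cofactor, read 30.1 in the control, 80.2 with cordycepin and 9.40 with cordyceps. With cordycepin the log2 ratio was 1.63, and the second probe gave a bound of at least 2.24-fold higher. The brighter probe's log2 ratio was 0.71 with normexp background correction, under 2-fold. With cordyceps it was not well above background, and because the floor on that array was above the control's signal no fold can be given.

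Of 6 urate transport genes, SLC2A9, SLC22A12 and SLC17A1 were not detected on the arrays compared. SLC17A3, a urate and phosphate carrier, read 157 in the control, 13.0 with cordycepin and 190 with cordyceps, from 1 spot per array. It was at least 6.18-fold lower with cordycepin, where it was not well above background. The size of this bound depended on the processing: the log2 ratio ran from -3.37 to -1.23 over 10 alternatives, past 2-fold in all of them. ABCG2, an efflux pump for urate and many drugs, read 132, 121 and 62.5, log2 ratios of 0.09 and -1.08, and was under 2-fold with cordyceps in 4 of 11 alternatives. SLC22A11, an organic anion transporter, read 248, 116 and 447, log2 ratios of -0.88 and 0.85.

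**Figure D4:**
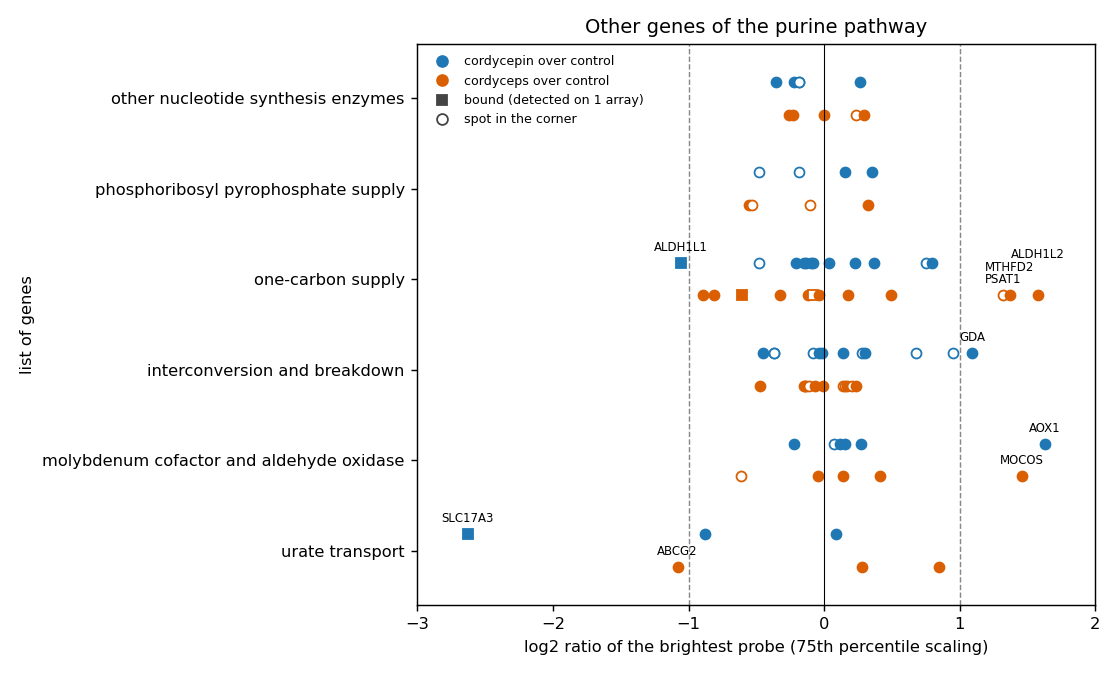
Log2 ratio over control of the brightest probe for each detected gene of 6 lists around the purine pathway, with cordycepin in blue and cordyceps in orange. Squares are bounds for genes well above background on 1 array of the pair, open symbols are probes whose first spot is in the corner, dashed lines mark 2-fold and genes past them are named; AOX1 with cordyceps has no fold and is not drawn.

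The reading of the members rests on how arrays were scaled. XDH ranged from 2.77 to 3.43-fold with cordycepin and from 8.83 to 11.9-fold with cordyceps over 11 alternatives. For the smaller differences a scaling to the array median moved all genes together, the median of all genes going from -0.04 to -0.31 with cordycepin and from -0.10 to 0.12 with cordyceps. With cordycepin ADSL, IMPDH2 and APRT were below 0 and GART above 0 under every alternative that gave a value, and the signs of PPAT, PAICS, ATIC, HPRT1 and PNP turned under median scaling, those of the last 4 also with no scaling. With cordyceps HPRT1 and APRT were below 0 and PPAT, GART and PAICS above 0 throughout, and ADSL, ATIC, IMPDH2 and PNP turned under median scaling, ADSL, IMPDH2 and PNP under other scalings as well.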

How the data were processed

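RNA from 3 A549 cultures, 1 per treatment, was hybridised to 3 one-colour (Cy3) Agilent arrays, and each array was 1 sample. The authors read the arrays with Agilent Feature Extraction 11.5.1.1, and the deposited scanner files hold spot intensity, background-subtracted and detrended within the array but not scaled between arrays. A deposited value table held the mean processed intensity per probe (99.9% of control-array probes within 0.1% of the scanner means), linear and unscaled, with column medians of 20.3, 21.1 and 16.9 in the order control, cordycepin and cordyceps, and it served as an alternative. The paper's methods describe Cy3 and Cy5 labelling, whereas these files hold 1 channel.

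Outlier spots (106, 80 and 63 in that order) were left out and spots of 1 probe averaged, leaving 58191 probes from the 60901 spots per array that are not controls. The median SD between spots of a replicated probe was 0.060, 0.052 and 0.051 on the log2 scale. From log2 intensity the 75th percentile of each array was subtracted. A probe counted as detected where 50% or more of its spots passed the scanner's well-above-background call, as 28494, 27666 and 24505 probes did. Names came through RefSeq accessions (GRCh38.p14, 31104 probes, 22435 symbols), and no array coordinates were used. Each gene took the value of the probe with the highest mean level, and was called past 2-fold, measured or as a bound. The number of arrays limits the precision, no p-value was computed, and the SD between replicates is not known. All 10 members were named with every probe; in the other lists, genes past 2-fold were named, and the largest difference where none was. SHMT1, NT5C2, MTHFD1L, MTAP, AMPD3, ADA and SLC22A11 were named after their values were seen. The members and lists were chosen with earlier results of these data known. The scaling and calls were tested on simulated arrays in which bright, detected probes were changed well past 2-fold. Bounds, dim probes, changes near 2-fold and the corner were not part of that test. Python 3.11.15 with numpy 2.4.6 and pandas 2.3.3 were used, and normexp (offset 50) ran in limma 3.58.1 under R 4.3.3. Promoter windows were RefSeq's, for 8 of 10 genes.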

Additional observations from a re-analysis of the deposited data

How the results depend on the processing

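No paired analysis was possible because each treatment has 1 array, so that the groups share a single replicate number, and no replicate could be left out. Under 12 alternatives (4 scalings, normexp background, 2 detection rules, outlier spots kept, the deposited value table, the median over a gene's probes, a 1.5-fold threshold, the corner left out), XDH was past 2-fold in every one that gave it a ratio. The main results were the counts of members past 2-fold and the members' median log2 ratio. Of their 70 values under these alternatives, 68 did not move. Counts, held as unmoved within 1.5 times, were the same in all of them. Medians were held as unmoved where they changed by less than the spread between probes. The exceptions were the members' median log2 ratio under median scaling, -0.15 with cordycepin and 0.23 with cordyceps. That median, near 0 in both comparisons, had the opposite sign in 2 of 11 alternatives with cordycepin and in 4 of 11 with cordyceps. Of the values for single members, 21 moved beyond that spread and 197 did not. Several alternatives could change little or nothing for the members. Every member probe was well above background on every array, so the 2 detection rules gave the main values again. The deposited value table held nearly the same intensities. The median over a gene's probes could not change the 8 members with 1 probe. Unmoved values under these alternatives are therefore no separate check. GART has no probe once the corner is left out.

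Counts over all genes moved more. Of the genes past 2-fold with cordycepin 62.5% were higher, but 33.6% under median scaling and 39.4% where arrays were left unscaled. The share with cordyceps was 57.1%, but 82.2% under median scaling and 45.7% with no detection filter. Counts of genes higher and lower moved by over 1.5 times to 388 and 269 (cordycepin) and 429 and 232 (cordyceps) with normexp. With no detection filter they moved to 1863 and 1078 with cordycepin, and to 1156 for lower genes with cordyceps. Median scaling gave 596 higher and 1179 lower with cordycepin and 208 lower with cordyceps, no scaling gave 1007 lower with cordycepin, and genes detected on both arrays gave 573 higher with cordycepin and 416 with cordyceps. Leaving the corner out, with arrays rescaled and probes chosen again, gave 291 lower with cordyceps, against 397 lower outside the corner with the scaling kept. In the other lists ALDH1L1, GDA and AOX1 fell under 2-fold with normexp, GDA also under median and no scaling, and ABCG2 in 4 of 11 alternatives. Spike-in scaling was not run, since 13, 11 and 7 of 350 spike-in spots were well above background. For MTHFD2 and MOCOS, values over some of their spots were added after seeing the data and moved by less than the spread between probes. The cause of these shifts was not tested. Dim probes limit the genes near background, such as AOX1 and ALDH1L1.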
